A study of Mus musculus with 8 samples.

Results

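The genes described here encode 9 kinases that phosphorylate the arginine and serine rich (RS) regions of splicing factors: the CLK genes *Clk1*, *Clk2*, *Clk3* and *Clk4*, the SRPK genes *Srpk1*, *Srpk2* and *Srpk3*, and *Dyrk1a* and *Prpf4b*. They were chosen by gene symbol, and all 9 are among the 40840 genes counted and among the 19104 genes tested. The samples were whole testes from 8 mice on a background given as C57/BL6 in the labels and C57BL/6J in the methods, collected 12 days after birth (P12) and sequenced as stranded mRNA libraries, with 4 mice of each genotype. The wild type mice carry a conditional (floxed) *Tra2b* poison exon on 1 allele (Tra2bPE fl/+) and no deletion. In the *Tra2b-cPEko* mice, 1 allele is floxed and the other already lacks the exon, and the Vasa-Cre transgene removes the exon from the floxed allele in germ cells from embryonic life on (Tra2b fl/-;Vasa-Cre). Sertoli, Leydig, peritubular and other somatic cells of the *Tra2b-cPEko* testis keep the exon on the floxed allele. The question put to the data was whether mRNA levels of the kinases that act on TRA2B and its relatives differed between the genotypes.

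SR proteins bind pre-mRNA and direct the choice of splice sites. Cytoplasmic SRPKs phosphorylate their RS regions in an ordered way, which allows import into the nucleus by transportin-SR, and nuclear CLKs add further phosphates that release SR proteins from nuclear speckles. Phosphatases of the PP1 and PP2A families reverse these steps. TRA2B is an SR-like protein that is itself phosphorylated by these kinases, and it is a splicing activator that promotes inclusion of its own poison exon, an exon that brings in an early stop codon and lowers TRA2B production. Kinase activity is set largely after transcription, so the mRNA levels reported here say nothing on how active each kinase was.

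The CLK family is known by the LAMMER signature, a short stretch of the kinase domain from which the family takes its name. In these sequences *Clk3* encodes a variant of it that differs from *Clk1* at 2 of 11 residues, and *Clk2* and *Clk4* differ at 0. The coding sequence is shown because it lets a reader see how far the 4 CLK genes differ at the DNA level in a conserved stretch, which bears on whether reads can be assigned to the right gene. The sequences come from GRCm39 with GENCODE vM39 transcripts and read 5′ to 3′ on the coding strand, and capitals mark the 13 of 33 positions at which the 4 genes are not all the same.
Clk1: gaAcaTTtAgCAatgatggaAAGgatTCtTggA
Clk2: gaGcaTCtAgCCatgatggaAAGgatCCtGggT
Clk3: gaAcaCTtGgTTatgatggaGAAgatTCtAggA
Clk4: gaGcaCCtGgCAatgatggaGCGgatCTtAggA
Each stretch lies within exon 11 of the canonical transcript, counted over all its exons. It is found at chr1:58452138-58452170 on the minus strand in *Clk1*, chr3:89082714-89082746 on the plus strand in *Clk2*, chr9:57659430-57659462 on the minus strand in *Clk3* and chr11:51171200-51171232 on the plus strand in *Clk4*. Relative to *Clk1*, 6 bases differ in *Clk2*, 7 in *Clk3* and 9 in *Clk4*.

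*Clk1* and *Clk4* were the closest pair of all, with 74.83% identity over 1430 aligned coding bases. The longest stretch in which their coding sequences are the same base for base is 34 bases, shown here because it is the longest such run between any of these paralogues. It lies in exon 4 of each gene, at chr1:58459306-58459339 on the minus strand and at chr11:51163936-51163969 on the plus strand of GRCm39.
Clk1 and Clk4: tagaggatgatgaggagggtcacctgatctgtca
*Clk2* and *Clk3* were 70.72% identical, with a longest shared run of 18 bases. The SRPK pairs were 71.42% to 71.89% identical, with longest shared runs of 17 to 29 bases. All of these runs are shorter than the 100-base reads. A search of the genome for other places with at least 95% identity to a canonical transcript over 100 bases or more found none for 7 of the 9 genes, 1 place of 111 bases for *Clk3*, and 566 places that cover 187 bases (4.02%) of the *Srpk1* transcript. No coding base of any of the 9 genes was covered.

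Wild type libraries held 41998195 to 59101569 reads on genes, and *Tra2b-cPEko* libraries 36757386 to 49992767. Reads that counting assigned to no annotated feature made up 12.4% to 12.8% of all reads in wild type mice. In *Tra2b-cPEko* mice they made up 13.2% to 13.6%, without overlap. Where the counted features are exons, these reads include those within introns. *Tra2b*, the targeted gene, had 164 ± 8.93 CPM (counts scaled to library size, with TMM normalization) in wild type mice and 198 ± 8.49 CPM in *Tra2b-cPEko* mice (SD, n = 4), with no overlap and a log2 fold change of 0.27 (SE 0.049, edgeR quasi-likelihood test, Benjamini-Hochberg adjusted p = 0.0552). Gene counts include transcripts with and without the poison exon, so they do not check its deletion. Markers of spermatogonia, spermatocytes, Sertoli, Leydig, peritubular, endothelial cells and macrophages were all detected.

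None of the 9 kinase genes was called between the genotypes. A gene is called where its adjusted p is under 0.05 in edgeR's quasi-likelihood test over all genes, and 30 of the 19104 genes tested (0.157%) met this rule. At this background no call would be anticipated among 9 genes, so the sizes and intervals of the differences carry more information than the count. DESeq2 also called 0 of the 9, against 507 of the 18149 genes (2.79%) to which it gave an adjusted p. An unadjusted p under 0.05 was found for 1 kinase gene, *Srpk2*, where 15.3% of all genes had one. DESeq2 also gave an unadjusted p under 0.05 for *Srpk2* and for no other kinase gene, where 9.69% of all genes had one. The values of the genotypes overlapped for every kinase gene, while they did not overlap for 8.54% of all genes. The median log2 fold change of the kinase genes was -0.014, with 4 of 9 above 0, and that of all genes was -0.0011, with 49.7% above 0. The median size of the change, without its sign, was 0.029 for the kinase genes and 0.09 for all genes.

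**Figure D1:**
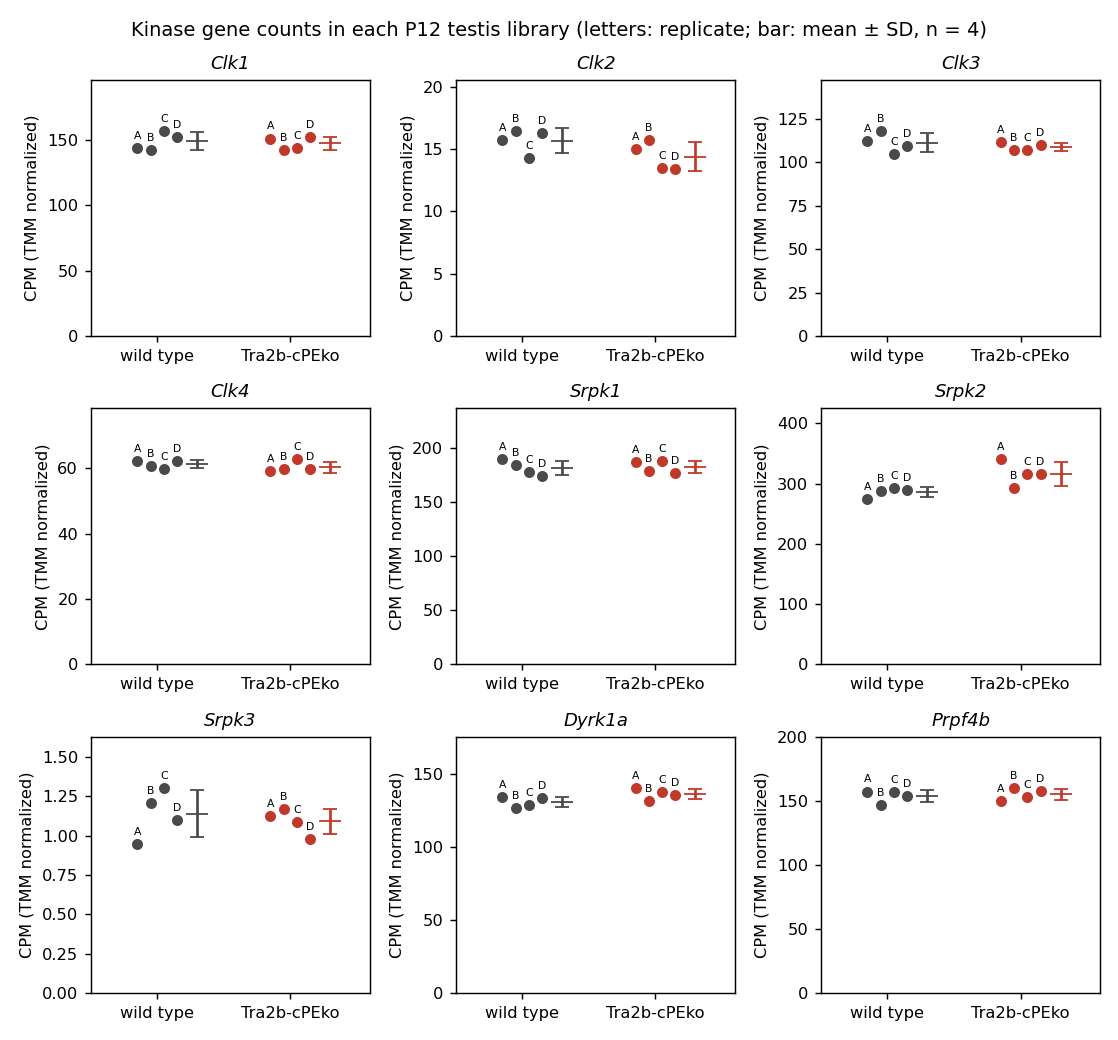
TMM-normalized CPM (vertical axes, each from 0) of the 9 kinase genes in each wild type (grey) and *Tra2b-cPEko* (red) mouse, with letters for the replicates and bars for the mean ± SD (n = 4). The points of the genotypes overlap in every panel, and in *Srpk2* and *Dyrk1a* replicates A, C and D of *Tra2b-cPEko* lie above every wild type mouse while replicate B (292 and 132 CPM) falls within the wild type values.

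*Clk1* encodes a nuclear kinase that phosphorylates SR proteins and that controls the splicing of its own transcripts. Its CPM was 144, 143, 157 and 153 in wild type mice A to D and 151, 142, 144 and 152 in *Tra2b-cPEko* mice A to D. The CPM ranges largely overlapped, on 6028 to 9004 reads per wild type library and 5227 to 7545 per *Tra2b-cPEko* library. The mean CPM was 149 ± 6.89 in wild type mice and 148 ± 5.01 in *Tra2b-cPEko* mice (SD, n = 4). The log2 fold change was -0.014 (SE 0.045, adjusted p = 0.91 by edgeR), and its 95% interval spans folds from 0.925 to 1.06.

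*Clk4*, the closest paralogue of *Clk1*, had a CPM of 62.3, 60.7, 60 and 62.3 in wild type mice and 59.3, 59.7, 62.8 and 59.7 in *Tra2b-cPEko* mice. Replicate C of *Tra2b-cPEko* was the highest of all 8 mice, and the other 3 mice of its genotype were the lowest. Between the genotypes *Clk4* had a log2 fold change of -0.023 (SE 0.042, adjusted p = 0.841 by edgeR), with folds from 0.924 to 1.05 within the 95% interval. The ratio of *Clk4* to *Clk1* counts was 0.412 ± 0.0224 in wild type mice and 0.409 ± 0.0214 in *Tra2b-cPEko* mice (SD, n = 4, two-sided exact permutation p = 0.886).

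*Clk3* encodes a CLK that is known to be abundant in testis and mature sperm. It had a CPM of 112, 118, 105 and 109 in wild type mice and 111, 107, 107 and 110 in *Tra2b-cPEko* mice. All 4 *Tra2b-cPEko* values lay inside the wild type range. The log2 fold change was -0.029 (SE 0.044, adjusted p = 0.801 by edgeR), with folds from 0.917 to 1.05 within the 95% interval. Of the merged exon bases of *Clk3*, 23.67% are shared with exons on the opposite strand, of *Edc3* and the noncoding gene *Gm32510*. The sources do not say if strand was used in counting.

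*Clk2* encodes a CLK that also acts in signalling downstream of insulin, and it was the least abundant CLK. Its CPM was 15.7, 16.5, 14.3 and 16.3 in wild type mice and 15, 15.7, 13.5 and 13.4 in *Tra2b-cPEko* mice. *Tra2b-cPEko* mice C and D were below every wild type mouse, and A and B were within the wild type range. The mean was 15.7 ± 1 in wild type mice and 14.4 ± 1.15 in *Tra2b-cPEko* mice (SD, n = 4). This gave the most negative log2 fold change of the 9 genes, -0.12 (SE 0.076, adjusted p = 0.473 by edgeR, two-sided exact permutation p = 0.2), and folds from 0.819 to 1.03 lay within the 95% interval. The ratio of *Clk2* to *Clk3* counts was 0.141 ± 0.00569 in wild type and 0.132 ± 0.0112 in *Tra2b-cPEko* mice, and these did not differ beyond their spread (n = 4, two-sided exact permutation p = 0.2).

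*Srpk2* encodes a cytoplasmic SR protein kinase, and it showed the largest difference of the 9 genes. Its CPM was 275, 287, 293 and 289 in wild type mice A to D, and 340, 292, 316 and 316 in *Tra2b-cPEko* mice A to D. Replicates A, C and D of *Tra2b-cPEko* were above every wild type mouse, and replicate B (292.264) was just below the highest wild type value (292.859). The mean was 286 ± 7.83 in wild type mice and 316 ± 19.5 in *Tra2b-cPEko* mice (SD, n = 4), 10.5% higher. The log2 fold change was 0.14 (SE 0.049), with an unadjusted p of 0.011 and an adjusted p of 0.204 by edgeR. DESeq2 gave an adjusted p of 0.122, and the two-sided exact permutation p was 0.0571, where the smallest that 70 arrangements of the 8 mice can give is 0.0286. The 95% interval of the single gene spans folds from 1.03 to 1.19, and it is not adjusted for the number of genes tested. With at least 10730 reads per library, depth did not limit this comparison. The 3′ end of *Srpk2* overlaps *Kmt2e* on the opposite strand over 7.02% of its exon bases, and *Kmt2e* had 201 CPM in wild type mice and 202 in *Tra2b-cPEko* mice.

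*Srpk1* encodes the SRPK known for steering SR proteins into the nucleus. It had a CPM of 189, 184, 178 and 174 in wild type mice and 187, 179, 188 and 177 in *Tra2b-cPEko* mice. All 4 *Tra2b-cPEko* values lay within the wild type range. *Srpk1* had a log2 fold change of 0.0081 (SE 0.042, adjusted p = 0.947 by edgeR), with folds from 0.944 to 1.07 within the 95% interval. The ratio of *Srpk2* to *Srpk1* counts, computed after the values of the genes had been seen, was 1.58 ± 0.0955 in wild type and 1.73 ± 0.0849 in *Tra2b-cPEko* mice. These ratios overlapped, from 1.45 to 1.66 and from 1.64 to 1.82 (n = 4, two-sided exact permutation p = 0.0857).

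*Srpk3* encodes the SRPK that is specific to striated muscle, and only 36 to 65 reads per library were counted on it. Its CPM was 0.95, 1.21, 1.3 and 1.1 in wild type mice and 1.12, 1.17, 1.09 and 0.981 in *Tra2b-cPEko* mice. In wild type its coefficient of variation, 13.3%, was the largest of the 9 genes, and in *Tra2b-cPEko* mice it was 7.42%, below the 7.96% of *Clk2*. For *Srpk3* the log2 fold change was -0.062 (SE 0.16, adjusted p = 0.885 by edgeR), and folds from 0.757 to 1.21 lay within the 95% interval. Changes within these bounds are compatible with the counts. Of the merged exon bases of *Srpk3*, 41.5% are shared with *Idh3g* on the opposite strand, which had 77.2 CPM in wild type mice and 76.9 in *Tra2b-cPEko* mice. How this overlap affected the *Srpk3* counts was not tested, whether by reads gained from *Idh3g* or by reads left uncounted because they match both genes. A list of 9 skeletal muscle genes summed to 8.93 to 10.3 CPM in wild type and to 9.86 to 13.1 in *Tra2b-cPEko* libraries.

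*Dyrk1a* encodes a dual-specificity kinase that phosphorylates several splicing factors, and changes in its gene dosage are known to affect development. Its CPM was 134, 127, 129 and 134 in wild type mice and 140, 132, 137 and 136 in *Tra2b-cPEko* mice. Replicates A, C and D of *Tra2b-cPEko* were above every wild type mouse, and replicate B lay inside the wild type range. The mean was 131 ± 3.65 in wild type mice and 136 ± 3.69 in *Tra2b-cPEko* mice (SD, n = 4). The log2 fold change was 0.058 (SE 0.04, adjusted p = 0.512 by edgeR, two-sided exact permutation p = 0.114), with folds from 0.98 to 1.11 within the 95% interval.

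*Prpf4b* encodes a kinase bound to the spliceosome that phosphorylates proteins of the tri-snRNP. It had a CPM of 158, 147, 157 and 154 in wild type mice and 150, 160, 154 and 158 in *Tra2b-cPEko* mice. The ranges overlapped over most of their length. For *Prpf4b* the log2 fold change was 0.014 (SE 0.041, adjusted p = 0.901 by edgeR), and folds from 0.95 to 1.07 lay within the 95% interval.

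**Figure D2:**
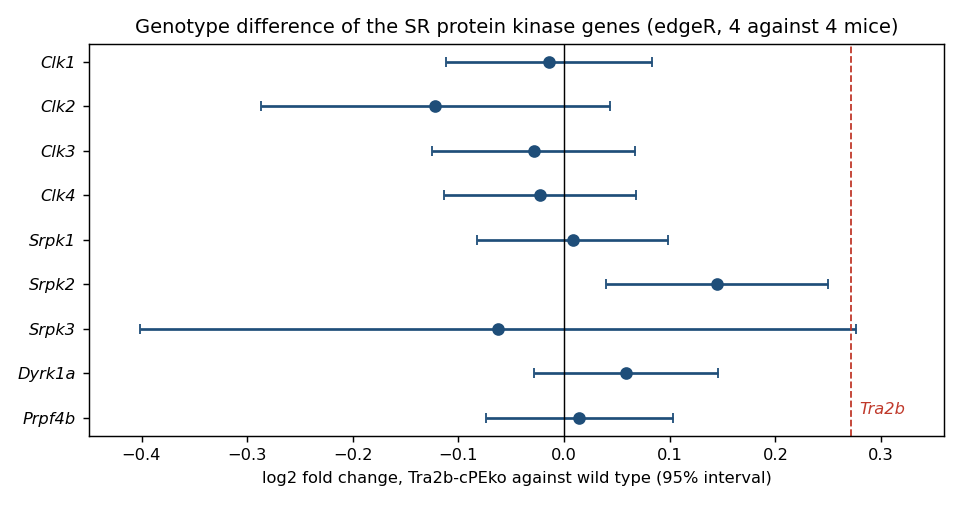
Log2 fold change of each kinase gene between *Tra2b-cPEko* and wild type testes (horizontal axis, points) with its 95% interval (bars) from the edgeR fit of 4 against 4 mice, and the value of *Tra2b* (0.27) as a dashed line. The interval of *Srpk2* alone does not reach 0, and that of *Srpk3*, which had few reads, is the widest.

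The precision behind these intervals was high. The median standard error of the log2 fold change was 0.044 for the kinase genes and 0.085 for all genes tested, and the median coefficient of variation among wild type mice was 3.64% against 8.77%. In mean CPM, 7 of the 9 genes were at or above the 74.8th percentile of the genes tested, and no comparison with genes of like abundance was made. For *Clk1*, *Clk3*, *Clk4*, *Srpk1* and *Prpf4b*, the 95% intervals of the genotype difference lay between -8.27% and 7.4%. These bounds hold for whole testis, in which germ and somatic cells are mixed. A larger difference confined to germ cells was not tested.

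Summed over the 9 genes, kinase CPM was 1091, 1084, 1094 and 1093 in wild type mice and 1156, 1089, 1124 and 1123 in *Tra2b-cPEko* mice. The 4 wild type sums lay close together, with a mean of 1091 ± 4.57 (SD, n = 4), and replicate B of *Tra2b-cPEko* fell among them. The 3 SRPK genes summed to 465 to 473 CPM in wild type and to 472 to 528 CPM in *Tra2b-cPEko* testes, and the 4 CLK genes to 334 to 340 and to 325 to 337 CPM. Both pairs of ranges overlapped. *Srpk2* provides the largest term of the SRPK sum and so sets most of its difference.

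**Figure D3:**
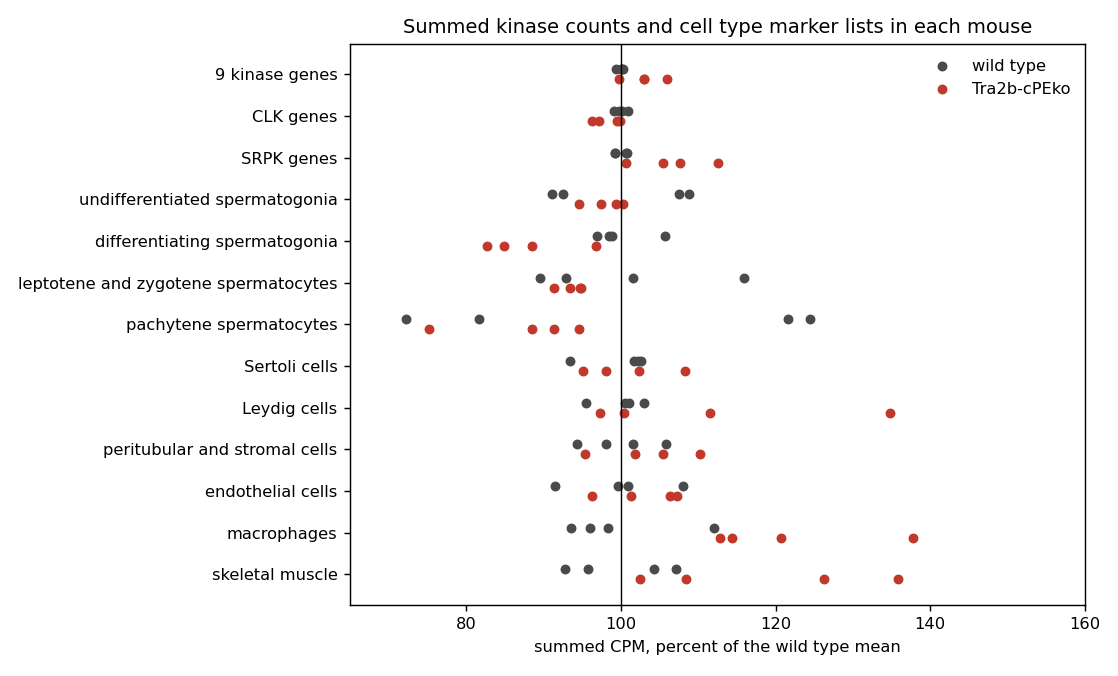
Summed CPM of the kinase genes and of lists of cell type markers in each wild type (grey) and *Tra2b-cPEko* (red) mouse, as a percent of the wild type mean of each row (horizontal axis, not starting at 0). The kinase sums spread less among the wild type mice than the pachytene spermatocyte markers (235 to 404 CPM), and the macrophage and differentiating spermatogonium markers are the marker rows without overlap between genotypes.

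Cell type marker levels varied among these testes, and in whole tissue a smaller number of cells of a type and less RNA per cell cannot be told apart. The 12 pachytene spermatocyte markers summed to 395, 404, 235 and 265 CPM in wild type mice A to D and to 288, 244, 307 and 297 CPM in *Tra2b-cPEko* mice A to D. In the same mice, *Srpk2* had 275, 287, 293 and 289 CPM in wild type and 340, 292, 316 and 316 CPM in *Tra2b-cPEko*. *Srpk1* had 189, 184, 178 and 174 CPM in wild type and 187, 179, 188 and 177 CPM in *Tra2b-cPEko*. The relation of these genes to the marker sums was not tested. The 7 markers of differentiating spermatogonia all had negative log2 fold changes and summed to 568 to 619 CPM in wild type and 484 to 566 CPM in *Tra2b-cPEko* mice. Of these markers, *Sohlh1* (log2 fold change -0.34, adjusted p = 0.0341 by edgeR) was the called gene, and it is named for that reason after its value was seen. The 8 macrophage markers all had positive log2 fold changes, and summed to 105 to 126 CPM in wild type and 127 to 155 CPM in *Tra2b-cPEko* mice. Of these 8, 0 were called by edgeR and 1 by DESeq2. Over all genes, edgeR called 0.157% and DESeq2 2.79%. No marker of either list was at 0 in a library. The part that cell composition or reads assigned to no feature had in the *Srpk2* difference was not tested.

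Levels were compared between genes as CPM per kb of merged GENCODE vM39 exons, in wild type mice. These lengths may not be those of the exons on which reads were counted. The order was *Srpk2* (19.4), *Prpf4b* (18.2), *Clk1* (17.3), *Srpk1* (14.5), *Dyrk1a* (13.7), *Clk3* (12), *Clk4* (5.16), *Clk2* (2.96) and *Srpk3* (0.329). The neighbours *Prpf4b* and *Clk1*, and *Srpk1* and *Dyrk1a*, overlapped between mice and were not separated, while every other gene was above its lower neighbour in all 4 wild type mice. The mean levels of *Tra2b-cPEko* mice had the same order. The order depended on the length used. With the longest transcript, 5 of 9 genes kept their place, and with the canonical transcript 3 of 9 did and *Clk1* moved to the first place at 82.9 CPM per kb. Merged exons of *Clk1* cover 8626 bases and its canonical transcript 1798 bases. Under all 3 lengths *Clk2* and *Srpk3* held the last places.

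**Figure D4:**
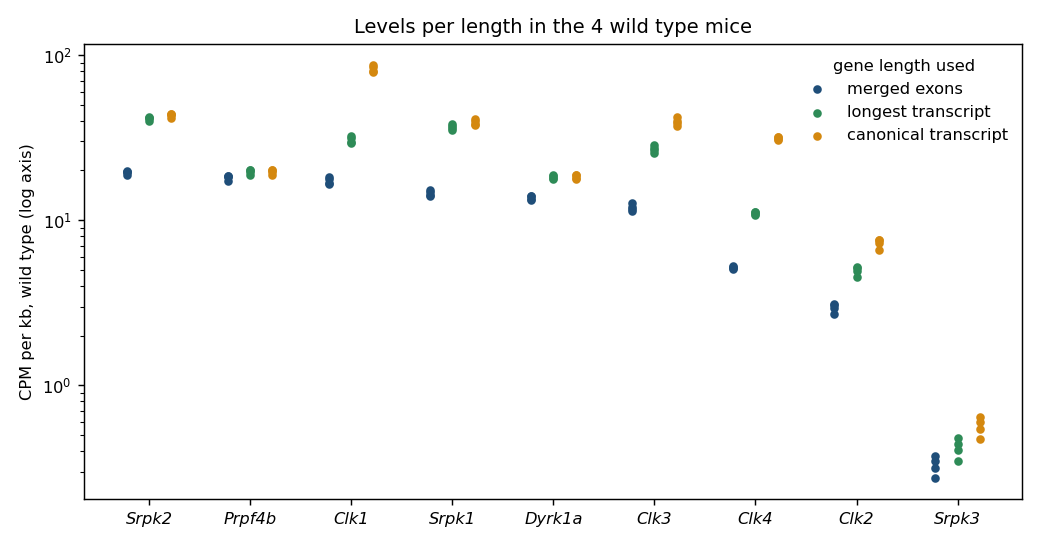
CPM per kb (vertical log axis) of each kinase gene in the 4 wild type mice (points), with gene length taken as merged exons, the longest transcript or the canonical transcript. *Clk1* and *Clk4* move most between lengths, and *Clk2* and *Srpk3* are last under each.

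The annotation gives most of these genes many transcripts that are not protein-coding. *Clk4* at chr11:51152552-51174060 has 57 annotated transcripts, of which 38 are labelled as targets of nonsense-mediated decay and 7 as retaining an intron. For *Clk1* at chr1:58449348-58463234, these are 9 and 7 of 22 transcripts, and for *Clk3* at chr9:57657836-57677642, 17 and 4 of 55. *Clk2* at chr3:89072098-89084228 has 1 and 4 of 12. In the SRPK family, *Srpk1* at chr17:28806622-28841683 has 10 transcripts labelled for decay of 32, *Srpk2* at chr5:23708199-23889615 has 6 of 35, and *Srpk3* at chrX:72817975-72822563 has 21 of 39. *Dyrk1a* at chr16:94369804-94496380 has 2 of 24 and *Prpf4b* at chr13:35059285-35090047 has 7 of 16. Counts are per gene and not per transcript. A shift between a productive and an unproductive transcript with no change of the sum is thus not visible here. These forms are those of GENCODE vM39, while the paper's methods name the NCBI annotation of GRCm39, so the counted exons can differ.

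The genes on which the kinases act were read from lists of substrates and partners. Of 13 SR protein genes, all tested, 0 were called higher and 1 was called lower. The called gene was *Tra2a*, the paralogue of *Tra2b*, with 138, 144, 121 and 111 CPM in wild type mice and 69.4, 73.2, 65.1 and 70.4 CPM in *Tra2b-cPEko* mice. *Tra2a* fell by 0.89 on the log2 scale (SE 0.077, adjusted p = 0.00231 by edgeR), with no overlap between the genotypes. Over the whole table, 0.0262% of genes were called lower and 0.131% higher. An unadjusted p under 0.05 with a negative fold was found for 3 of 13, where 7.07% of all genes had one. The median log2 fold change of the SR protein list was -0.056, with 3 of 13 above 0. Its 12 members other than *Tra2a* were not called by edgeR, and DESeq2 called 1 of them, *Tra2b*. The genotypes did not overlap for 5 of the 13 genes, where 8.54% of all genes did not: *Tra2a*, *Tra2b*, which was higher, and 3 others. These 3 are named after their values were seen, and *Srsf7* (224 to 209 CPM, adjusted p = 0.258 by edgeR), *Srsf3* (308 to 288 CPM, adjusted p = 0.284) and *Srsf10* (315 to 300 CPM, adjusted p = 0.428) had lower values in all 4 *Tra2b-cPEko* mice than in any wild type mouse.

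Of 17 other substrates, spliceosomal and speckle proteins with RS regions and the lamin B receptor, 0 were called by edgeR, where 0.157% of all genes were. The median log2 fold change of these 17 genes was -0.029. The smallest p in this list belonged to the lamin B receptor *Lbr* (log2 fold change -0.11, adjusted p = 0.273 by edgeR), a substrate of SRPK1, the splice site factor *U2af1* (-0.11, adjusted p = 0.325) and *Rsrc1* (-0.094, adjusted p = 0.366). The 15 partners and opposing factors include transportin-SR (*Tnpo3*), SAFB proteins, phosphatases and chaperones. Of these, 0 were called, against the same 0.157% of all genes, and the median was 0.0025. *Tnpo3* had 173 CPM in each genotype. The smallest p in this list belonged to *Safb2* (0.13, adjusted p = 0.272 by edgeR) and to the PP1 catalytic subunits *Ppp1cb* (-0.11, adjusted p = 0.294) and *Ppp1ca* (-0.079, adjusted p = 0.345).

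Of 16 related kinases of the DYRK, HIPK, CDK, CK2 and GSK3 families, 0 were called by edgeR or DESeq2, which called 0.157% and 2.79% of all genes. An unadjusted p under 0.05 by edgeR with a positive fold was found for 3, where 8.22% of all genes had one. These were *Dyrk2* (60.3 ± 3.36 CPM in wild type mice and 67.8 ± 3.44 in *Tra2b-cPEko* mice, log2 fold change 0.17, adjusted p = 0.183 by edgeR), *Dyrk1b* (155 ± 4.95 and 167 ± 3.23 CPM, 0.11, adjusted p = 0.223) and *Hipk3* (142 ± 11.8 and 156 ± 6.22 CPM, 0.13, adjusted p = 0.299). *Dyrk1b*, the closest paralogue of *Dyrk1a*, was higher in each of the 4 *Tra2b-cPEko* mice (164, 165, 169 and 171 CPM) than in any wild type mouse (148 to 160 CPM), and *Dyrk1a* and *Dyrk2* overlapped. Over all genes, the genotypes did not overlap for 8.54%. The median log2 fold change of the 16 genes was 0.053, with 11 above 0. Their summed CPM was 1716 to 1781 in wild type and 1806 to 1835 in *Tra2b-cPEko* mice, which did not overlap. This sum was not tested, and the macrophage and spermatogonium markers given above differ between the same mice.

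**Figure D5:**
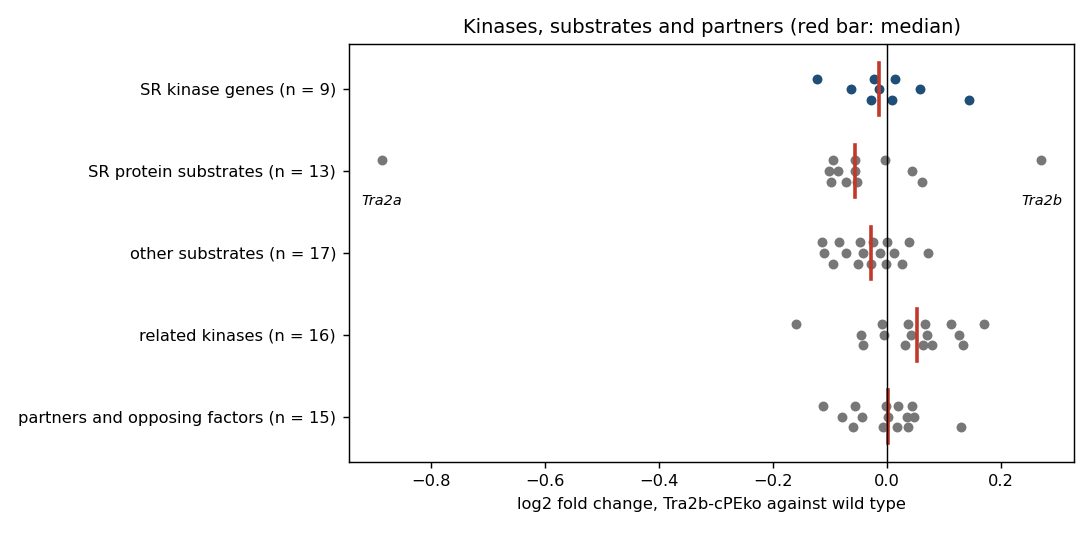
Log2 fold change between *Tra2b-cPEko* and wild type testes (horizontal axis) of every tested gene (points) among the 9 kinases, their substrates, related kinases and partners, with the median of each list as a red bar. *Tra2a* at -0.89 and *Tra2b* at 0.27 stand outside the spread of all other genes shown.

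Genes with the most similar profile over the 8 mice were sought among 15476 tested genes whose mean reached 1 CPM, by Pearson's r of log2 CPM. For *Srpk2* this was *Kansl3* (r = 0.995, log2 fold change 0.12 where *Srpk2* has 0.14), for *Srpk1* it was *Septin12* (r = 0.972) and for *Srpk3* it was *Pgghg* (r = 0.947). Among the CLK genes, the nearest profiles were those of *Nfia* for *Clk1* (r = 0.962), *Slc27a4* for *Clk2* (r = 0.978), *Wdr34* for *Clk3* (r = 0.984) and *Seh1l* for *Clk4* (r = 0.901). *Dyrk1a* was nearest to *Mrpl3* (r = 0.973) and *Prpf4b* to *Ccdc88a* (r = 0.959). None of the 9 nearest genes was itself a kinase of the set. Each r is the highest of a wide search over 8 points and is given as a description of these libraries.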

How the data were processed

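Whole testes of 12-day-old mice, 4 per genotype and biologically independent according to the methods, were used for RNAseq. The authors deposited raw counts of reads per gene symbol, 1 table per mouse, with 5 summary lines that were left out of the tests (31.0% to 33.6% of all reads). Per the submitters' processing notes, HISAT2 2.2.1, SAMtools 1.7.1, HTSeq 2.0.2 and deepTools 3.5.1 were used with GRCm39, while the paper's methods name Salmon. Whether counting was stranded is not given in the sources used here, and no batch or litter is named. Reads aligned at more than 1 place are not counted on a gene.

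The genotypes were compared with edgeR 4.0.16 under R 4.3.3 (filterByExpr with a least count of 10 and a least total of 15, TMM factors, robust dispersions and robust quasi-likelihood F-test, genotype as the only term), with Benjamini-Hochberg adjustment over 19104 genes and a threshold of 0.05. Intervals are at 95%. Two-sided exact permutation tests used all 70 arrangements of the mice on log2 CPM with a prior count of 2. DESeq2 1.42.0 with default settings, limma-voom (limma 3.58.1), other normalizations and filters, the replicate letter as a block and fits without each mouse were the alternatives. Within a genotype, the chi-square of 2 libraries' counts was 5.79 to 17.5 per degree of freedom, well above sampling noise. The scripts were tested on simulated data.

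Positions, transcripts, gene lengths, exon overlaps and sequences come from GENCODE vM39 on GRCm39. The paper's methods name the NCBI annotation of GRCm39, so these exons may not be the ones on which reads were counted. Coding sequences were aligned with Biopython 1.88, and other places in the genome were searched with BLAST+ 2.17.0. Figures were drawn with matplotlib 3.10.9 in Python 3.11.15.

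The 9 genes and all lists were chosen with earlier results of these data known. All 9 are named with their value in each mouse. From each list of substrates, partners and related kinases, every called gene is named and, where none was called, the 3 with the smallest p. For each kinase gene the gene with the nearest profile is named, and *Tra2b* and overlapping genes are given beside them. Sums and ratios of kinase genes and levels by canonical transcript were added after the data were seen.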

Additional observations from a re-analysis of the deposited data

Results flagged for a closer look

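In 1 of 30 sets of 4 mice (9 kinase genes, 3 sums and 3 ratios in each genotype), the most distant mouse lay further from the others than Dixon's 95% limit. This was *Clk4* in *Tra2b-cPEko* replicate C, with 62.8 CPM where the other 3 mice had 59.3 to 59.7 CPM. Chance alone gives about 1 such set in 20, or 1.5 of 30. The mouse also had the most macrophage marker CPM (155).

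The share of reads outside annotated genes, which enters no comparison of the kinase genes, was 13.4% ± 0.165 in *Tra2b-cPEko* mice and 12.6% ± 0.135 in wild type mice (SD, n = 4), without overlap (two-sided exact permutation p = 0.0286, the smallest that 70 arrangements can give).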

How the results depend on the processing

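None of the 9 kinase genes was called under any of the 17 alternatives, which include a threshold of 0.1 chosen after the data were seen. The number of genes called over the whole table was 30 (25 higher), and it was 30 with DESeq2 size factors, 58 (53 higher) with upper-quartile factors, 123 without the filter on low counts, 14 with a mean count of at least 50, 507 (301 higher) with DESeq2, 11 with limma-voom, 12 without robust estimation, 67 with the replicate block and 156 at an adjusted p under 0.1. Leaving out 1 mouse gave 3 to 84 genes, with 84 without wild type replicate C, 76 without *Tra2b-cPEko* replicate B and 3 without *Tra2b-cPEko* replicate D. The cause was not tested. Changes of scaling moved the median log2 fold change of all genes by 0.018 at most.

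*Srpk2* kept a positive log2 fold change of 0.11 to 0.18 in all 16 fits, with an adjusted p of 0.122 to 0.423. *Clk2*, *Clk4* and *Dyrk1a* also kept their sign. Genes near 0 changed sign: *Clk1* was 0.0041 with upper-quartile factors, and *Srpk1* was -0.00036 without the filter on low counts. Without 1 mouse, *Clk1* ranged from -0.034 to 0.0094, *Clk3* from -0.057 to 0.0023, *Srpk1* from -0.014 to 0.027, *Srpk3* from -0.14 to 0.0062 and *Prpf4b* from -0.0065 to 0.028. The order by level per length kept 5 of 9 places with the longest transcript and 3 of 9 with the canonical transcript.

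The replicate letters gave correlations of deviations between same-lettered mice of 0.027, -0.14, -0.039 and 0.12, and only wild type D correlated best with its own letter. The sources do not say what the letters mean, and these values cannot decide whether same-lettered mice are pairs. With the replicate block, *Srpk2* had a log2 fold change of 0.14 (adjusted p = 0.242 by edgeR), and 0 kinase genes were called.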
